A study of Mus musculus with 12 samples.

Results

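Cxcl9, Cxcl10 and Cxcl11 encode the chemokines that bind the receptor CXCR3. They were found by name among the spots of 12 two-colour Agilent arrays, where each had 1 probe (for NM_008599, NM_021274 and NM_019494) and 1 spot, so they were 3 of 27670 genes or other features. The genes were chosen by the log ratios and signals of these same arrays, which had shown them to differ between the RNAs, and the labels give 1 RNA per condition. Every level and ratio is therefore a description, without a test and without a replicate check.

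The arrays held 6 RNAs from NR-S1, a squamous cell carcinoma that spreads to the lung and was grown in the hind leg of male C3H/HeMsNrs mice. A primary tumour had been given 5 Gy of carbon ions, another 8 Gy of gamma rays and another no radiation, and these were taken 1 week after the tumour reached 7.5 mm. Lung metastases came from other mice, 2 weeks after their primary tumour reached 7.5 mm, and that primary had had the carbon ions, the gamma rays or nothing. Site and time of sampling therefore cannot be told apart, each RNA is labelled clone 1, and how many animals it came from is not given in the sources used here. Cells were cut out by laser microdissection and their RNA was amplified linearly. Below, a metastasis after carbon ions or gamma rays means one whose primary tumour was irradiated.

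CXCL9, CXCL10 and CXCL11 draw activated T cells and natural killer cells, which carry CXCR3, into inflamed tissue and tumours. Interferon gamma, made mainly by those same cells, switches the genes on, and Cxcl10 also answers to type I interferons and to NF-kappa B. Macrophages, dendritic cells, endothelium and tumour cells can all make them, so their RNA does not name a cell type.

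The 3 genes lie side by side on mouse chromosome 5 in the order Cxcl9, Art3, Cxcl10, Cxcl11, all read from the minus strand, in the RefSeq annotation of GRCm38.p6. That annotation lists Cxcl11 as a transcribed pseudogene in the reference strain C57BL/6J, and the C3H sequence was not analysed here. Of the 3, Cxcl9 and Cxcl10 matched the RefSeq promoter table. Their 250 bases before the transcription start, chr5:92328080-92328329 and chr5:92348890-92349139, are shown because they hold the sites through which interferons and NF-kappa B are known to act. Capitals mark the motifs found by searching both strands.
Cxcl9: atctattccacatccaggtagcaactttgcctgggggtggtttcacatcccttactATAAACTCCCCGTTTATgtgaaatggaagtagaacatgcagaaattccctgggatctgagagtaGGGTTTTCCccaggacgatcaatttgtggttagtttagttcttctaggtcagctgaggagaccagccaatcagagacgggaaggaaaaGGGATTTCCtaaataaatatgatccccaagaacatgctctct
Cxcl10: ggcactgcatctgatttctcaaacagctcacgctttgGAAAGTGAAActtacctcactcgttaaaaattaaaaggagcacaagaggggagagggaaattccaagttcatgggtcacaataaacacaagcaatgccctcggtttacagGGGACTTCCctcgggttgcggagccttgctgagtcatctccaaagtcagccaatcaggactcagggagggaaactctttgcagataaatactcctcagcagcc
The Cxcl10 promoter held the core of an interferon-stimulated response element, GAAA and GAAA with any 2 bases between, at -213 to -204, counted from the transcription start, a pattern found in 2.98% of 32851 promoter windows of this length. The kappa B pattern GGGNNTTCC, present in 4.98% of windows, stood at -103 to -95 in Cxcl10 and at -130 to -122 and -42 to -34 in Cxcl9. Only this 1 form was searched, so kappa B sites of another length or spelling stay unmarked and the matches do not count all such sites. The interferon gamma-activated sequence pattern TTCNNNGAA, present in 7.02% of windows, was in neither window. Cxcl9 also held the inverted repeat ATAAAC and GTTTAT with any 5 bases between, at -194 to -178, known as part of its interferon gamma response element. Its letters were taken from this promoter, so its presence in 1 of 32851 windows is no finding. None of the matches overlapped another, and the C3H promoters were not read.

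Depending on the channel, 53.8% to 68.8% of spots stood clear of background, 0 were saturated, and 16 to 58 spots an array were left out as outliers. The 12 arrays shared 3 slides, 4 to a slide. Slide 1 carried the dye swaps of the unirradiated and gamma metastases, slide 2 those of the carbon ion metastasis and the gamma primary, and slide 3 that of the carbon ion primary and the direct dye swap of both irradiated primaries. Differences between RNAs that lay on different slides cannot be told apart from a difference between slides. Keratinocyte markers, which check the tumour label, were well above background in every channel for all 11 listed genes, and the median of their summed signal lay between 641060.0 in the carbon ion metastasis and 917153 in the unirradiated metastasis. Skeletal muscle, lung epithelium and leukocyte markers were present too, as given beside the results they move with.

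The signal of each ligand in every channel gives the first view of the data. Values are Agilent's processed signal, which is background-subtracted and dye-normalized, and signals of different probes are not compared. Cxcl9 read 15519, 18132, 19808 and 20723 in the primary after carbon ions, 3534, 4012, 4450.1 and 4484 in the primary after gamma rays, 11600.2 and 11840.0 in the unirradiated metastasis, 969 and 982 in the metastasis after carbon ions and 587 and 620.4 in the metastasis after gamma rays. In the unirradiated primary, present on 10 arrays, its signal had a minimum of 35.6, a median of 118 and a maximum of 561. The 6 RNAs did not overlap, with the carbon ion primary highest and the unirradiated primary lowest.

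Cxcl10 read 18244, 20037.5, 21439.7 and 25647 in the primary after carbon ions and 4164, 4263, 5029 and 5140.1 in the primary after gamma rays. In the metastases it read 12850.4 and 16456 without radiation, 2108 and 2632 after carbon ions and 1828 and 2387 after gamma rays. The unirradiated primary lay at 243 to 493 with a median of 339.9 over its 10 channels. The metastases of the 2 irradiated groups overlapped, and the other RNAs stood apart.

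Cxcl11 read 935, 1049, 1079 and 1254 in the primary after carbon ions, 159, 165, 184 and 204 in the primary after gamma rays, 1187 and 1369 in the unirradiated metastasis, 131 and 151 in the metastasis after carbon ions and 64.7 and 79.5 in the metastasis after gamma rays. The unirradiated primary lay at 7.07 to 40.3 with a median of 14.0, and it was well above background in 3 of 10 channels. The primary after carbon ions overlapped the unirradiated metastasis.

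**Figure D1:**
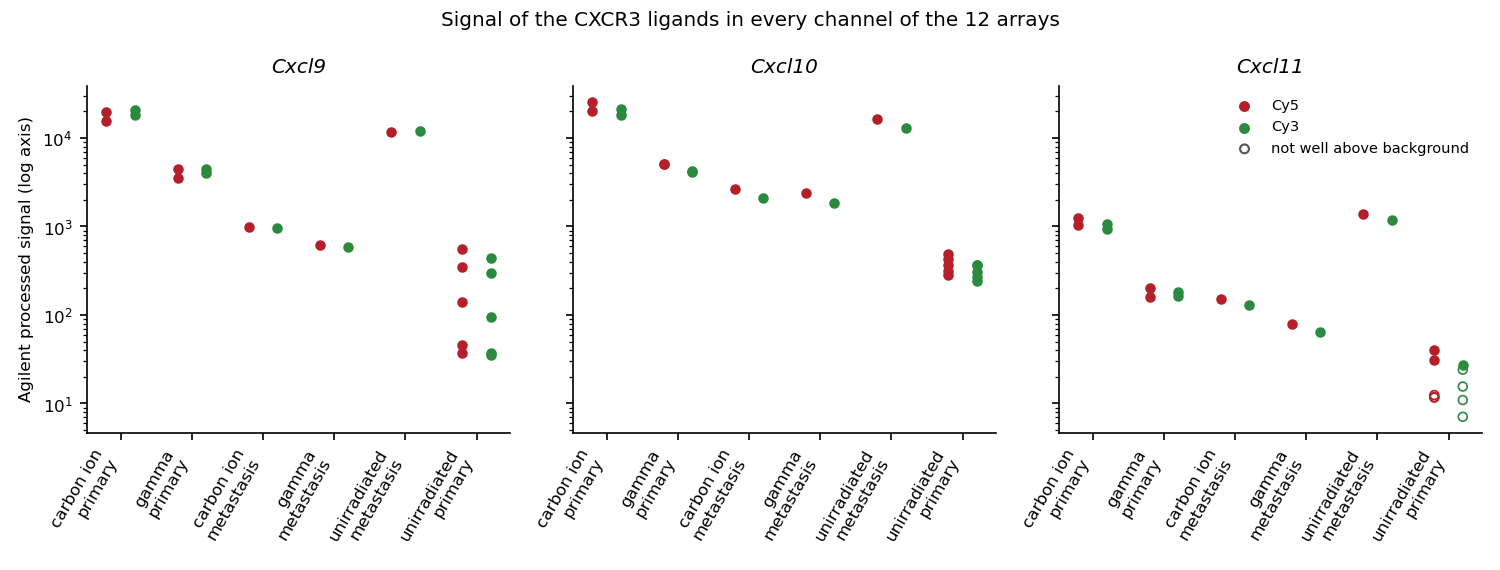
Processed signal (log axis) of each CXCR3 ligand in every channel of the 12 arrays, by RNA and dye; open points were not well above background. All 3 genes are bright in the primary after carbon ions and in the unirradiated metastasis, and the unirradiated primary is lowest, with a Cxcl9 range of 35.6 to 561.

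After gamma rays the primary tumour was higher in all 3 ligands. The log2 ratio to the unirradiated primary, given as the mean ± SD over the 2 dye orientations of a pair, was 4.36 ± 0.02 for Cxcl9, which is 20.5-fold, and 3.56 ± 0.30 for Cxcl10, which is 11.8-fold. Neither array measured Cxcl11 clear of background in the unirradiated primary, so its ratio of 1.46 ± 0.00 is a bound, at least 2.75-fold. From the highest ratio down, Cxcl9 was at place 4 of 15579 measured genes and Cxcl10 at 10. A call required a difference of 2-fold or more with the same sign in both orientations, and "rose" and "fell" are used only for such genes. All 3 ligands were called higher, against 2.23% of measured genes, and nothing is read from such shares, since the genes were chosen with these differences known.

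After carbon ions the primary tumour stood higher still. Cxcl10 rose by 5.52 ± 0.31, 45.9-fold above the unirradiated primary and at place 5 of 15635 genes. Cxcl9 rose by 5.16 ± 0.13, 35.7-fold and place 9, and Cxcl11 by 3.44 ± 0.17, 10.9-fold and place 46. The 3 calls stand beside 3.91% of genes called higher. For Cxcl11 the unirradiated primary was well above background on 1 of the 2 arrays, and the orientations gave 3.56 and 3.32. Its size is not firm, since it ran from 3.32 to 5.41 over the alternatives, where Cxcl10 ran from 5.30 to 5.80.

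On the arrays that held both irradiated primaries, the carbon ion primary exceeded the gamma primary by nearly the same factor for each ligand. The ratios were 1.90 ± 0.18 for Cxcl9, 2.06 ± 0.22 for Cxcl10 and 1.99 ± 0.20 for Cxcl11, that is 3.74-fold, 4.18-fold and 3.97-fold, so the 3 genes differed from each other by less than the SD over orientations. All were called higher, against 0.884% of genes, at places 29, 20 and 25 of 15037. Carbon ions and gamma rays were given at different doses, 5 and 8 Gy, so kind of radiation and dose cannot be told apart.

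The unirradiated metastasis carried the ligands at levels like those of the carbon ion primary. Against the unirradiated primary, Cxcl10 rose by 5.04 ± 0.29, Cxcl9 by 4.99 ± 0.09 and Cxcl11 by 3.77 ± 0.21. These are 33.0-fold, 31.7-fold and 13.7-fold, with 10.4% of all measured genes called higher. The Cxcl11 size is not firm, and ran from 3.52 to 5.27 over the alternatives. Measured each in its own channel, as explained further on, the carbon ion primary was above the unirradiated metastasis by 0.56 ± 0.09 in Cxcl9 and 0.45 ± 0.11 in Cxcl10 and below it by -0.33 ± 0.02 in Cxcl11, none of which reached 2-fold. Other tissue moved with this comparison: 10 of 11 lung epithelium markers (median 4.11), 9 of 10 endothelium markers (median 2.07) and 7 of 8 neutrophil markers were called higher than in the unirradiated primary, and 11 of 11 skeletal muscle markers were called lower, with a median of -3.88. Their part in the ligand levels was not tested.

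Metastases of irradiated mice had less of each ligand. Against the unirradiated primary, the metastasis after carbon ions stood at 3.57 ± 0.03 for Cxcl9, 3.002 ± 0.295 for Cxcl10 and 1.64 ± 0.11 for Cxcl11. All 3 were called, beside 8.21% of genes. The Cxcl11 ratio is a bound of at least 3.06-fold by the main processing only, and own channels, explained further on, gave 2.91-fold. In the metastasis after gamma rays Cxcl9 stood at 3.01 ± 0.05 and Cxcl10 at 2.76 ± 0.32, and these 2 were called beside 8.82% of genes. Cxcl11 was at 0.96 ± 0.17 there, a bound of at least 1.94-fold by the main processing only, with 1.75-fold in own channels. It was not called, though Agilent's processed log ratio, the authors' value table, an offset of 0 and the Cy5 orientation alone each brought the count to 3.

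Set against the unirradiated metastasis through the unirradiated primary, all 3 ligands fell in both groups. After gamma rays Cxcl11 fell by 2.81 ± 0.04 on the log2 scale, Cxcl10 by 2.29 ± 0.04 and Cxcl9 by 1.97 ± 0.14, so the unirradiated metastasis was 7.03-fold, 4.88-fold and 3.93-fold above, with 1.4% of 17342 genes called lower. The Cxcl11 size is not firm, since the unirradiated primary on the gamma metastasis arrays was dim, and it ran from -3.06 to -2.28 over the alternatives. After carbon ions Cxcl11 fell by 2.13 ± 0.10, Cxcl10 by 2.04 ± 0.01 and Cxcl9 by 1.42 ± 0.12, with 2.37% of genes called lower. The Cxcl11 size has the same limit there and ran from -2.32 to -1.92. The Cxcl9 value after carbon ions depends on the processing: with Agilent's processed log ratio it was -0.63, which ends the call, as do the authors' value table and a normexp offset of 0. The carbon ion metastasis was above the gamma metastasis by 0.56 ± 0.02 for Cxcl9, 0.25 ± 0.03 for Cxcl10 and 0.69 ± 0.06 for Cxcl11, so none was called, where 0.239% of genes were called higher and 1.07% lower.

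Within a radiation group, metastasis was lower than primary. After carbon ions the ratio of metastasis to primary was -2.52 ± 0.02 for Cxcl10, -1.80 ± 0.06 for Cxcl11 and -1.59 ± 0.15 for Cxcl9, all called, with 1.93% of genes called lower. The Cxcl9 call is lost there with Agilent's processed log ratio, at -0.80, and under the same other alternatives. After gamma rays Cxcl9 fell by 1.34 ± 0.07 and was the 1 ligand called, beside 0.905% of genes. Cxcl10 stood at -0.80 ± 0.02 and Cxcl11 at -0.50 ± 0.17. That count of 1 became 0 with Agilent's processed log ratio, the authors' value table or a normexp offset of 0, and 2 with scaling between arrays.

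Comparisons that pass through the unirradiated primary rest on its signal being the same on every array, and for Cxcl9 it was not. Averaged over the 2 arrays of each pair, the Cxcl9 signal of this same RNA was 501 beside the carbon ion primary, 324 beside the unirradiated metastasis, 118 beside the gamma primary, 41.9 beside the carbon ion metastasis and 36.6 beside the gamma metastasis. The other RNA on those arrays read 20265, 11720.1, 3773, 976 and 604, so the 2 channels of an array ran in the same order, and the unirradiated primary stayed at 2.47% to 6.06% of its partner. Cxcl10 varied far less: its unirradiated primary signal was 428, 398, 339.6, 264 and 292 in the same order of partners, a 2.03-fold range over channels against 15.8-fold for Cxcl9. Once normalized between arrays, its level ran from 8.34 to 8.62 on the log2 scale without following the partner. That of Cxcl9 ran from 6.54 to 8.90. Cxcl11 read 27.7, 33.9, 11.4, 14.0 and 9.37, most of it not well above background. The cause was not tested.

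**Figure D2:**
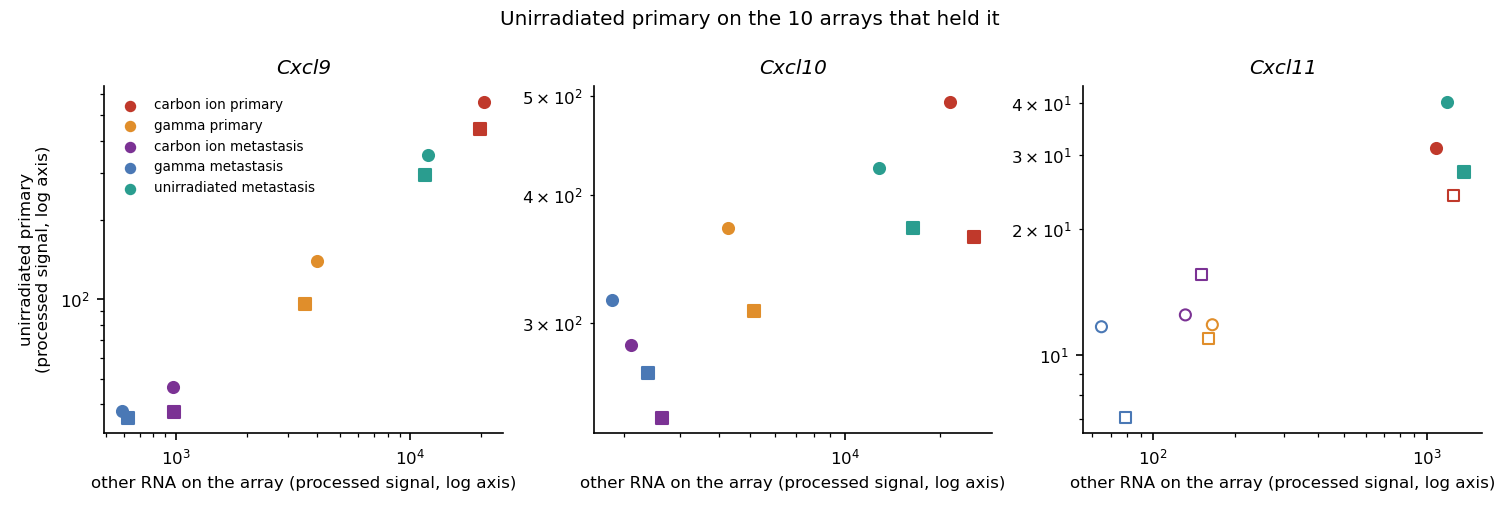
Processed signal of the unirradiated primary (y axis, log) against that of the other RNA on the same array (x axis, log) for the 10 arrays that held it; circles have the unirradiated primary in Cy5, squares in Cy3, and open points were not well above background. For Cxcl9 the unirradiated primary runs from 35.6 to 561 along with its partner, while Cxcl10 stays between 243 and 493.

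The carbon ion and gamma primaries allow a direct look, since they were compared both on shared arrays and through the unirradiated primary. For Cxcl9 the shared arrays gave 1.90 ± 0.18 and the indirect route 0.80 ± 0.11, which would not have been called. That gap of 1.10 was at place 2 of 15037 genes, whose gaps had a median of -0.03 and an SD of 0.07. Cxcl10 gave 2.06 against 1.96 and Cxcl11 1.99 against 1.98. Each RNA was therefore also compared in its own channel, same dye against same dye, without dividing by the unirradiated primary. That comparison was added after the signals had been seen, and it leaves differences between arrays and slides in the value. It gave 1.98 ± 0.13, 1.99 ± 0.08 and 2.02 ± 0.10 for Cxcl9, Cxcl10 and Cxcl11, all called beside 1.02% of genes.

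Against the unirradiated primary itself, averaged over its 10 arrays, own channels changed the size of Cxcl9 most. They gave 77.4-fold in the carbon ion primary, 52.5-fold in the unirradiated metastasis, 6.92-fold in the carbon ion metastasis and 4.11-fold in the gamma metastasis, in place of the 35.7-fold, 31.7-fold, 11.9-fold and 8.08-fold on shared arrays. In the carbon ion primary Cxcl9 was then above Cxcl10, whose own-channel ratio was 45.04-fold, so the order of those 2 ratios depends on the route. The Cxcl9 level of the unirradiated primary ran from 6.54 to 8.90 on the log2 scale over its 10 channels, so the own-channel sizes are not exact either.

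In own channels the Cxcl9 differences between metastases were larger, and those of Cxcl10 hardly moved. Cxcl9 in the metastasis after gamma rays was lower than in the unirradiated one by -3.67 ± 0.13, so the unirradiated metastasis was 12.8-fold above, and after carbon ions by -2.92 ± 0.09, or 7.58-fold. Cxcl10 differed by -2.26 ± 0.04 and -2.07 ± 0.04, and Cxcl11 by -3.06 ± 0.00 and -2.32 ± 0.04. All 3 were called in both, beside 1.76% and 2.62% of genes. Metastasis against primary after carbon ions was -3.48 ± 0.18 for Cxcl9, -2.52 ± 0.07 for Cxcl10 and -1.99 ± 0.02 for Cxcl11, all called beside 2.15% of genes. After gamma rays the values were -2.26 ± 0.09, -0.72 ± 0.01 and -0.70 ± 0.12, and Cxcl9 alone was called, beside 1.14% of genes. For Cxcl9 the direction was the same by both routes and the size was not: the own-channel value minus the value through the unirradiated primary was -1.70 for the gamma metastasis against the unirradiated one and -1.89 for metastasis against primary after carbon ions.

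**Figure D3:**
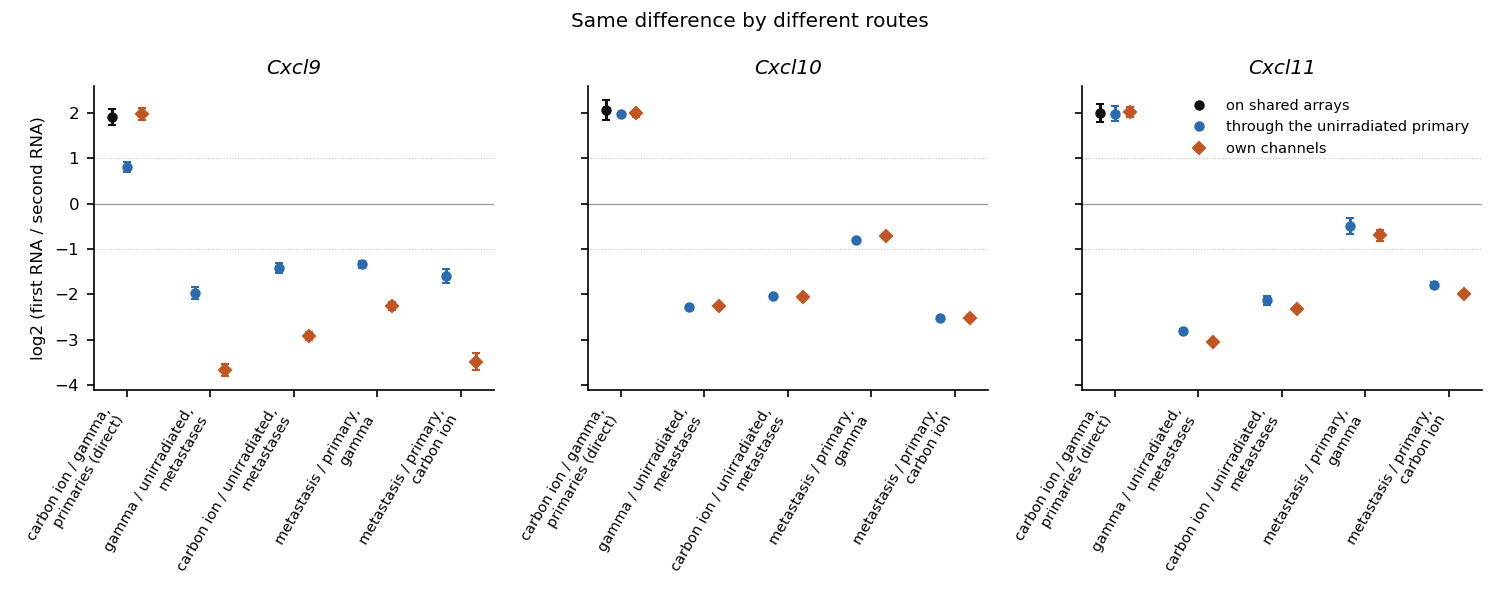
Log2 differences (mean ± SD over 2 dye orientations) of each ligand between RNAs, on shared arrays (black), through the unirradiated primary (blue) and in own channels (orange); dotted lines mark 2-fold. The routes lie close for Cxcl10 and Cxcl11 and differ for Cxcl9, by 1.10 between the irradiated primaries.

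By own-channel level the 6 RNAs fell in a similar order for each gene. For Cxcl9 and Cxcl10 that order was carbon ion primary, unirradiated metastasis, gamma primary, carbon ion metastasis, gamma metastasis and unirradiated primary. For Cxcl10 the neighbouring carbon ion and gamma metastases were close, the carbon ion metastasis 0.19 ± 0.00 above the gamma metastasis when the same dyes were compared. For Cxcl11 the unirradiated metastasis led, and the gamma primary stood at -0.03 ± 0.08 from the carbon ion metastasis in the same dyes, within the spread between dyes.

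With the main processing the receptor was not called in the primaries, where its ligands rose, and was called in all 3 metastases. Cxcr3 encodes the receptor of all 3 chemokines and is carried by T and natural killer cells. Its processed signal was 66.0 to 89.8 in the carbon ion primary, 58.7 to 63.2 in the gamma primary and 26.0 to 51.3 in the unirradiated primary. The log2 ratios to the last were 0.51 ± 0.07 and 0.41 ± 0.08, neither of them called. The carbon ion result depends on the processing. On the shared arrays its processed signals were 89.8 and 76.9, beside 31.2 and 34.9 in the unirradiated primary. That is over 2-fold in both orientations, which would be a call. In the metastases it read 403 and 494 without radiation, 304 and 388 after gamma rays and 154 and 174 after carbon ions. Against the unirradiated primary these stood at 2.29 ± 0.24, 2.38 ± 0.10 and 1.60 ± 0.13, all called. Between the metastases, Cxcr3 after gamma rays was 0.09 ± 0.14 from the unirradiated one, while the ligands there stood at -2.81 to -1.97. After carbon ions Cxcr3 stood at -0.69 ± 0.11, lower in both orientations as the ligands were, but not called.

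A list of 9 genes held the receptor, genes that act on it or on its ligands, and other chemokine receptors, and 8 were measured. Its counts are therefore not of CXCR3 partners alone. In the gamma and carbon ion primaries 0 of 8 were called higher. The carbon ion count was 1 with Agilent's processed log ratio or the authors' value table, and that gene was Cxcr3. In each metastasis 4 of 8 were called higher than in the unirradiated primary. Those 4 were Cxcr3, another chemokine receptor, Cxcr4, the peptidase Dpp4, which clips and inactivates CXCR3 ligands, and the scavenging receptor Ackr2. Dpp4 stood at 2.67 ± 0.06, 2.96 ± 0.04 and 2.64 ± 0.21 in the unirradiated, carbon ion and gamma metastases. Ackr2 stood at 3.93 ± 0.14, 2.41 ± 0.03 and 2.66 ± 0.00 in that order, and was the 1 of 8 called lower in each irradiated group than in the unirradiated metastasis. Cxcr4 stood at 1.59 ± 0.17, 1.38 ± 0.26 and 1.20 ± 0.22. Ackr3, which scavenges CXCL11 and CXCL12, fell in the gamma primary with -1.27 ± 0.27. The platelet chemokine Pf4, which can bind CXCR3 in some settings, and the syndecans Sdc1 and Sdc4, which hold chemokines at the cell surface, were called in none of the direct comparisons with the unirradiated primary, and Ackr4 was measured in none.

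Interferon gamma itself moved with the ligands. In the unirradiated primary Ifng read 2.44 to 10.5 and was well above background in 0 of 10 channels. It read 300.4 to 394 in the carbon ion primary, 69.0 to 91.6 in the gamma primary, 420 and 482 in the unirradiated metastasis, 47.7 and 61.9 in the carbon ion metastasis and 34.4 and 44.3 in the gamma metastasis. Against the unirradiated primary it was at least 5.18-fold higher in the carbon ion primary, at least 1.92-fold higher in the gamma primary and at least 7.41-fold higher in the unirradiated metastasis. The counts below take it as called in the gamma primary from its fitted ratio of 1.16 ± 0.16, although its bound is under 2-fold. Relative to the unirradiated metastasis it fell by 2.20 ± 0.06 after gamma rays and by 1.85 ± 0.08 after carbon ions, with own-channel values of -2.22 ± 0.10 and -1.92 ± 0.01. On shared arrays the carbon ion primary exceeded the gamma primary by 1.32 ± 0.18 in Ifng.

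**Figure D4:**
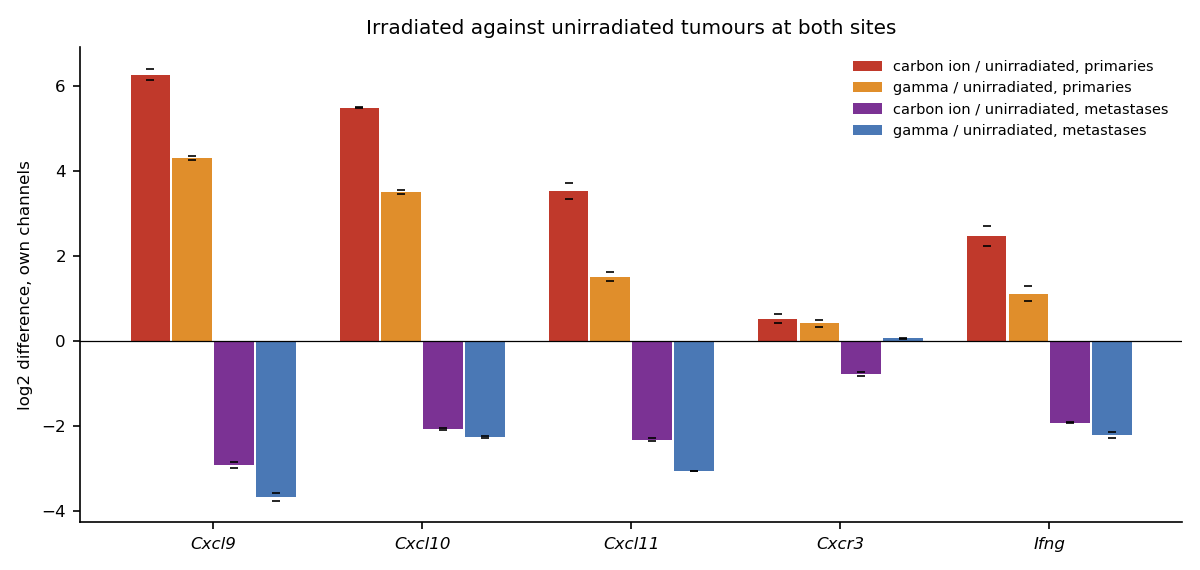
Log2 differences between irradiated and unirradiated tumours in own channels, in primaries and in metastases, for the 3 ligands, their receptor Cxcr3 and Ifng; bars are means of the 2 dyes and ticks the single dyes. The ligands and Ifng are above 0 in the primaries and below 0 in the metastases, and bars of Cxcl11 and Ifng in primaries rest on an unirradiated primary mostly or wholly not well above background.

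Of 10 genes of interferon gamma signalling, all measured, 6 were called higher in the carbon ion primary, 4 in the gamma primary and 7 in the unirradiated metastasis than in the unirradiated primary. Their medians were 1.57, 0.81 and 1.68, beside 0.02, 0.02 and 0.05 over all measured genes. The gamma count fell to 2 with the mean of all probes of a gene. Irf1, an interferon-induced factor, rose by 1.94 ± 0.13, 1.14 ± 0.10 and 1.60 ± 0.09 in those 3 RNAs, and Ciita, the activator of MHC class II genes, by 3.08 ± 0.14, 1.501 ± 0.01 and 2.64 ± 0.07. Irf8, a factor of myeloid cells, rose by 1.92 ± 0.24 in the carbon ion primary and 2.42 ± 0.35 in the unirradiated metastasis and stood at 0.91 ± 0.31 in the gamma primary. The inhibitor Socs1 stood at 1.22 ± 0.01, 0.63 ± 0.02 and 1.76 ± 0.02. The receptor chains Ifngr1 and Ifngr2 were at 0.56 and 0.38 in the carbon ion primary and 0.72 and 0.40 in the gamma primary, and the kinases Jak1 and Jak2 at -0.09 and 0.29 and at -0.10 and 0.06, none of them called.

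Ifng was the 1 gene of those 10 called lower in each irradiated group than in the unirradiated metastasis, where the medians were -0.19 after gamma rays and -0.37 after carbon ions. Irf1 stood at -0.37 ± 0.04 and -0.40 ± 0.03 there, Socs1 at -0.59 ± 0.01 and -0.76 ± 0.04, and Ciita at 0.42 ± 0.04 and 0.07 ± 0.07.

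Genes of type I interferon signalling and response were also higher in the irradiated primaries. Of 14 listed genes 13 were measured, and 9 were called higher in the carbon ion primary, 9 in the gamma primary and 9 in the unirradiated metastasis, with medians of 2.58, 1.70 and 1.80. Ifit1, an antiviral protein that binds foreign RNA, stood at 4.45 ± 0.21, 2.45 ± 0.06 and 3.73 ± 0.04, and Irf7, the amplifying factor, at 3.16 ± 0.25, 2.16 ± 0.21 and 3.02 ± 0.20. None of the 13 was called lower in the gamma or the carbon ion metastasis than in the unirradiated one, and the medians there were -0.18 and -0.17. Isg15, a ubiquitin-like modifier, stood at -0.78 ± 0.07 and -0.43 ± 0.08. The cytokine gene Ifnb1 itself was measured in none of the direct comparisons.

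Genes with the most similar ratios were found as the smallest root mean square difference of the 5 log2 ratios to the unirradiated primary, among 12922 named genes measured in all 5. Cxcl10 was nearest to Gbp3, a guanylate-binding protein, and Ifi47, an interferon-inducible GTPase, at distances of 0.34 and 0.35, ahead of Cxcl9 at 0.48. Cxcl9 was nearest to Ifi47 at 0.43, Cxcl10 at 0.48 and Gbp3 at 0.53, then Rtp4 and Ifi27l2a at 0.71 and 0.78. For Cxcl10 the list closed with Rtp4 and Irgm2 at 0.74 and 0.83. Cxcl11 was nearest to Apol6, Gbp5, Bst2, Batf2 and Ifit2, at 0.59 to 0.65, with Cxcl10 and Cxcl9 at places 579 and 1522. Those Cxcl11 distances are not firm, since its ratios in the gamma primary and in both metastases of irradiated mice are bounds. In the gamma primary the authors' value table put Cxcl11 at 3.84 and Cxcl10 at 3.79, in place of 1.46 and 3.56. Distances to and from Cxcl9 are not firm either, since its ratios depend on the route. Own channels put Cxcl9 at 6.27 in the carbon ion primary and 2.04 in the gamma metastasis, in place of 5.16 and 3.01. Pearson correlation, which ignores size, shared 0 of the 5 nearest genes with this measure for each ligand. These 5 ratios share 1 denominator RNA, so they describe likeness on these arrays only.

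Genes beside the cluster on the chromosome did not rise with it in the irradiated primaries or the unirradiated metastasis. Art3, which lies between Cxcl9 and Cxcl10 and encodes a relative of ADP-ribosyltransferases, stood at -0.08 ± 0.08 in the carbon ion primary, -0.17 ± 0.06 in the gamma primary and 0.26 ± 0.09 in the unirradiated metastasis. Sdad1 and Nup54, on either side, were at -0.04 ± 0.00 and -0.27 ± 0.12 in the carbon ion primary. Farther off, Ppef2 fell in the carbon ion primary, with -1.17 ± 0.17. In the metastases of irradiated mice Art3 was called lower than in the unirradiated one, as the ligands were. It stood at -1.23 ± 0.03 after gamma rays and -1.01 ± 0.01 after carbon ions. CXC chemokines elsewhere on chromosome 5 went other ways. Cxcl1 and Cxcl3, which draw neutrophils, fell in the carbon ion primary, with -1.87 ± 0.25 and -1.58 ± 0.13, and in the gamma primary, with -1.29 ± 0.30 and -1.69 ± 0.12. Cxcl13, which draws B cells, was measured in neither primary comparison and stood at 3.32 ± 0.06 in the gamma metastasis against the unirradiated one, a size set through an unirradiated primary that was not clear of background on the arrays of the unirradiated metastasis.

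**Figure D5:**
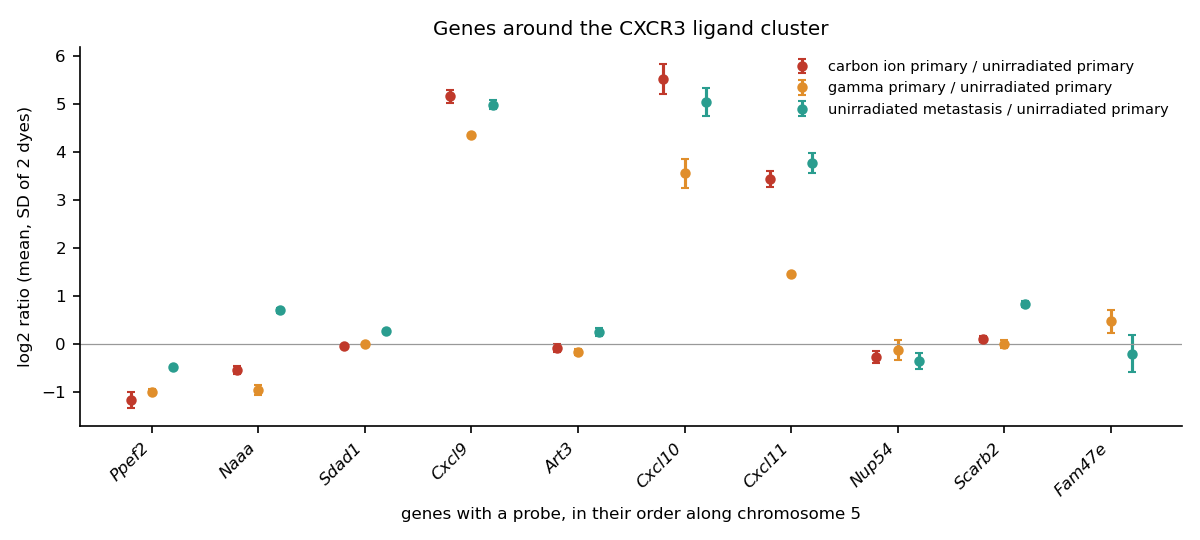
Log2 ratios to the unirradiated primary (mean ± SD over 2 dye orientations) of genes with a probe, in their order along chromosome 5, for the carbon ion primary, the gamma primary and the unirradiated metastasis. Cxcl9, Cxcl10 and Cxcl11 stand at 1.46 to 5.52, while Art3 between them stands at -0.17 to 0.26.

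Among 21 other chemokine ligands, 1 of 18 measured was called higher in the carbon ion primary and 0 of 17 in the gamma primary, with medians of 0.21 and 0.05. The 1 was Ccl5, which draws T cells, at 1.18 ± 0.00, against 0.69 ± 0.05 in the gamma primary. That count ran from 0 to 3 over the alternatives. In the unirradiated metastasis 11 of 19 were called higher, among them Cxcl12 at 3.65 ± 0.17, Ccl9 at 3.28 ± 0.18 and Ccl5 at 3.23 ± 0.05. After gamma rays 3 of 19 were lower than in the unirradiated metastasis, Xcl1 at -1.32 ± 0.12, Ccl2 at -1.16 ± 0.01 and Ccl7 at -1.11 ± 0.03, and 1 higher, Ccl19 at 3.84 ± 0.14, with the same limit. After carbon ions 5 of 19 were lower, among them Ccl2, which draws monocytes, at -2.86 ± 0.05. Ccl5 was not among them, at 0.79 ± 0.01 after gamma rays and -0.13 ± 0.02 after carbon ions.

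Leukocyte markers moved with the ligands in part. In a bulk RNA, fewer cells of a type and less RNA per cell cannot be told apart. The T and natural killer cell list had 16 genes, of which 8 of 13 measured were called higher in the carbon ion primary, 4 of 12 in the gamma primary and 9 of 15 in the unirradiated metastasis, with medians of 1.41, 0.99 and 1.82. Eomes, a factor of cytotoxic cells, went the other way in the carbon ion primary, at -1.30 ± 0.14, the 1 gene of the list called lower there, and the lowest ratio in the gamma primary was -0.90. These counts were 3, 0 and 5 when both RNAs had to be above background. Taken from the value table of the authors they were 10, 8 and 11. Nkg7, a protein of cytotoxic granules, stood at 2.40 ± 0.07, 1.60 ± 0.20 and 2.91 ± 0.15. The summed signal of the list ran from 3628 to 4302 in the carbon ion primary, 2167 to 2684 in the gamma primary, 6383 to 7024 in the unirradiated metastasis, 2575 to 2893 in the carbon ion metastasis, 4996 to 5638 in the gamma metastasis and 1056 to 1964 in the unirradiated primary. In the gamma metastasis, where the ligands were lower, 0 of 15 were called lower than in the unirradiated metastasis and the median was 0.04. In the carbon ion metastasis 1 of 14, Cd8a, was lower, at -1.18 ± 0.07, and the median was -0.58. Ncr1, a receptor of natural killer cells, was well above background in none of the 3 primaries.

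Some genes of the dendritic cell list rose with the ligands in the primaries. Called higher were 3 of 8 measured after carbon ions and 3 of 7 after gamma rays, each time the MHC class II genes H2-Aa and H2-Ab1 and the invariant chain Cd74. The medians of the measured markers were 0.38 and 0.33, and the lowest ratios -0.30 and -0.49. Cd74 stood at 2.91 ± 0.14 in the carbon ion primary and 2.10 ± 0.02 in the gamma primary. The 3 called genes are made by other antigen-presenting cells too, and Flt3 and Clec9a, which define dendritic cells, were well above background in none of the primaries. The summed signal was 75289.8 to 97090.4 in the carbon ion primary, 36097 to 42388 in the gamma primary, 95431 to 98281 in the unirradiated metastasis, 57059 to 59206 in the carbon ion metastasis, 65894 to 68559 in the gamma metastasis and 8392 to 15865 in the unirradiated primary. In the metastases of irradiated mice 0 of 10 markers after gamma rays and 0 of 9 after carbon ions were called lower than in the unirradiated one.

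Genes that NF-kappa B controls did not rise with the ligands in the primaries, with 0 of 11 called higher after either radiation and medians of -0.20 after carbon ions and -0.01 after gamma rays. Ptgs2, which makes prostaglandins, fell to -1.98 ± 0.01 after carbon ions and -1.82 ± 0.02 after gamma rays. The inhibitor Nfkbia stood at -0.25 ± 0.16 and -0.07 ± 0.19, and the adhesion molecule Icam1 at 0.95 ± 0.01 and 0.37 ± 0.03.

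Macrophage markers were called higher in neither irradiated primary, 0 of 12 in each, with medians of 0.22 after carbon ions and 0.05 after gamma rays. In the unirradiated metastasis 11 of 12 were called higher, with a median of 1.71, and against it 5 of 12 were lower after gamma rays and 4 of 12 after carbon ions, with medians of -0.97 and -0.96. Adgre1, which encodes the F4/80 antigen, stood at -1.25 ± 0.03 and -1.04 ± 0.05 in these 2, and Itgam at -1.23 ± 0.04 and -1.85 ± 0.12. Their summed signal was 23463 to 29022 in the carbon ion primary, 16574 to 19568 in the gamma primary and 11939 to 22320.4 in the unirradiated primary. In the metastases it was 62837 to 63017 without radiation, 19838 to 21506 after carbon ions and 27294 to 28612 after gamma rays. Neutrophil markers were lower than in the unirradiated metastasis for 5 of 8 genes after gamma rays and 6 of 8 after carbon ions, with Ltf called higher in each, at 1.25 ± 0.03 and 2.07 ± 0.03. Of 11 lung epithelium markers 0 were called lower and 2 higher in each, beside 1.85% of all measured genes called higher in each. Those 2 were Scgb3a2, at 4.14 ± 0.04 after gamma rays and 3.96 ± 0.07 after carbon ions, and Cyp2f2, at 1.20 ± 0.09 and 1.27 ± 0.04. Endothelium markers were called lower for 0 of 10 after gamma rays and 2 of 10 after carbon ions, and in each irradiated primary for 1 of 10, with 0 higher. In the primaries, skeletal muscle markers fell, 11 of 11 in the gamma primary and 3 of 11 in the carbon ion primary, and 9 of 11 were higher in the carbon ion primary than in the gamma primary. The part of any of these cells in the ligand differences was not tested.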

How the data were processed

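Each array held 2 RNAs, and both dye orientations of a pair were averaged as technical repeats of 1 replicate, so no p-value was computed. Per the file headers, the scanner files of array design 014868 were made with Agilent Feature Extraction 9.1.3.1 under protocol GE2-v5_91_0806. They hold deposited mean and background intensity per spot with no normalization, and a processed signal intensity, background-subtracted and then dye-normalized (linear and LOWESS), as the headers say. The log10 ratio as deposited is Cy5 over Cy3 of the processed signals, and the authors' value table equalled it within 0.005 with column medians of 0. No source used here gives any later step.

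Ratios were computed in R 4.3.3 with limma 3.58.1 by normexp with an offset of 50 and loess within arrays, control spots at weight 0, and turned by the dyes in the labels. The offset pulls dim ratios toward 0. The log2 values printed were computed here from the deposited intensity, not by the authors. A gene counted as measured where its brightest probe was well above background in 1 of the 2 RNAs on every array. The normalization was tested on simulated data. Bounds set the brighter RNA against the higher of the dim probe's own level and the lowest level among probes well above background. They hold for the main processing, and other routes can give less. Own-channel levels used Aquantile between arrays. Probes were named through RefSeq GRCm38.p6: 22951 by accession, 6659 by symbol, 3109 by an older symbol, and 8455 kept the file's name.

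The members and gene lists were chosen with earlier results of these data known. Named were the 3 ligands, the 5 genes of nearest ratios to each, all members of the receptor and interferon gamma lists, and up to 4 per list and comparison among called or defining members of the other lists. Some members of these lists enter the counts and are not reported by name here. Genes of the cluster's surroundings were picked by position. The number of arrays limits the precision. Alternatives were other background corrections and normalizations, single orientations, filters on dim probes, the mean of all probes, the authors' value table, the route of the comparison and, added after seeing the data, own channels.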

Additional observations from a re-analysis of the deposited data

Results flagged for a closer look

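The 3 ligands were listed here because radiation went with a rise at one site and a fall at the other. In both dye orientations each ligand was higher in the irradiated than in the unirradiated primary and lower in the metastasis of irradiated than of unirradiated mice. The metastasis effect minus the primary effect on the log2 scale for gamma rays was -6.33 for Cxcl9, -5.84 for Cxcl10 and -4.27 for Cxcl11. For carbon ions it was -6.58 for Cxcl9, -7.56 for Cxcl10 and -5.57 for Cxcl11. The difference was not tested, since there was 1 RNA per condition and the 2 orientations were arrays of the same RNAs. The primaries were irradiated themselves and the metastases were not, and site and time of sampling differed too, which cannot be told apart. The primary effect is a direct ratio to the unirradiated primary, and the metastasis effect passes through that RNA, whose Cxcl9 signal differed between arrays. In own channels the Cxcl9 effects of gamma rays were -3.67 in metastases and 4.30 in primaries. Those of carbon ions were -2.92 and 6.27 for Cxcl9 and -2.07 and 5.49 for Cxcl10, so the order of these 2 genes depends on the route. For Cxcl11 the unirradiated primary was well above background on 0 of 2 arrays with the gamma primary. It was so on 0 of 2 with each metastasis of irradiated mice and 1 of 2 with the carbon ion primary. Neither Cxcl11 value is therefore exact.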

How the results depend on the processing

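No paired analysis was possible because each condition had 1 RNA. Among the counts of ligands called in each comparison, 1 differed by more than 1.5 times under an alternative: the count called lower in the gamma metastasis than in the gamma primary was 1, but 0 with a normexp offset of 0, 0 with Agilent's processed log ratio, 0 with the authors' value table and 2 with scaling between arrays. No ligand ratio changed sign where it was called. Of the ligand ratios, 28 of 33 moved by more than the SD between orientations when arrays were scaled to each other, 26 for the values Agilent's software gave, 22 without the offset, 14 with median centring and 12 of 18 in own channels. Requiring both RNAs above background removed the Cxcl11 calls of the carbon ion primary, the gamma primary and the carbon ion metastasis against the unirradiated primary, leaving 2 ligands in each. That follows from the filter, since Cxcl11 in the unirradiated primary was well above background on 1, 0 and 0 of the 2 arrays of each pair. Causes of the moved ratios were not tested. Over all genes, Agilent's processed log ratio called most: 604 against 348 higher in the gamma primary, and 939 against 611 in the carbon ion primary. In lists, the type I interferon count between the irradiated primaries was 6, and 3 with median centring, and the macrophage count in the unirradiated metastasis was 11, and 6 with median centring. Dim signal limits Cxcl11 and Ifng, for which the unirradiated primary gives bounds.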

Other observations

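B cell markers and their attracting chemokine stood out in the metastasis after gamma rays, where the CXCR3 ligands were low. Against the unirradiated metastasis, 5 of 7 B cell markers were called higher, beside 1.85% of all measured genes. The median log2 ratio of the 7 was 1.66, and the surface antigen Ms4a1, among those called, stood at 2.36 ± 0.16. Cxcl13, which draws B cells, stood at 3.32 ± 0.06 and Ccl19, which draws T cells and dendritic cells to lymphoid tissue, at 3.84 ± 0.14. These sizes pass through the unirradiated primary, in which Ms4a1, Cxcl13 and Ccl19 were well above background on 0 of 2 arrays with the unirradiated metastasis, so they are not exact. After carbon ions 0 of 6 B cell markers were called higher and 1 lower, and Cxcl13 and Ccl19 stood at -0.39 ± 0.09 and 0.09 ± 0.11. Each is 1 RNA, so whether other metastases share this was not tested.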
